A study of Mus musculus with 16 samples.

Results

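The BAF complex (SWI/SNF) is a chromatin remodeller whose ATPase uses the energy of ATP to slide or evict nucleosomes, which opens DNA at promoters and enhancers. Its subunits come in alternative versions, and the ESC form, built around the ATPase encoded by Smarca4 with Arid1a and Smarcc1, is known for its part in self-renewal and in the control of pluripotency genes. The mRNAs of 10 BAF subunits were followed here: Smarca4, Smarcb1, Smarcc1, Smarcc2, Smarcd1, Smarcd2, Smarce1, Arid1a, Dpf2 and Actl6a. They were chosen by name as subunits of the complex and not by a rule on their values, but with earlier results of these data known. They are 10 of the 46983 genes listed. All 10 passed the filter on low counts (at least 1 CPM, a count scaled to the size of its library, in at least 10 of 16 libraries), which left 12805 genes for testing.

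Libraries came from the mouse ESC line 46C, derived from 129Ola mice and carrying GFP at the Sox1 locus in every group, grown with LIF. Cells were transfected for 48 hr with RAM siRNA or with a non-targeting control siRNA. RAM is the activating subunit of the mRNA cap methyltransferase RNMT, and is encoded by Ramac. After cycloheximide (100 µg/ml in every group), 10% of each cytoplasmic extract was kept as input and the rest was run on a sucrose gradient, from which fractions 17 to 22 were pooled as polysomes. There were 4 replicates of each siRNA, each with an input and a polysome library, hence 4 groups of 4 libraries: input control, input RAM siRNA, polysome control and polysome RAM siRNA. The cells are a population of a single line with a transient and incomplete knockdown, so fewer cells with a transcript and less of it per cell cannot be told apart.

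Libraries held 16647523 to 20147833 counts. Ramac was lower after RAM siRNA, with a log2 fold change of -1.84 ± 0.11 (SE) in input (adjusted p = 7.24e-06, quasi-likelihood test of edgeR) and of -2.52 ± 0.55 in polysomes (adjusted p = 0.128, and 2.36e-05 with a term for the replicate number, called the replicate block). The markers were those of ESCs: all 8 pluripotency markers had a mean of 146 to 2129 CPM in control input, whereas the neural markers reached 32.8, fibroblast markers 9.32 and endoderm markers 2.83 CPM at most, with Twist2 at 0. The polysome RAM siRNA library of replicate 2 stood apart from the other polysome libraries for long transcripts, as its values for Smarca4 and Arid1a show further on, so the effect of RAM siRNA in polysomes is given with and without replicate 2.

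The subunits can be ordered by their part in the complex. Smarca4 (BRG1), the catalytic ATPase, is on chromosome 9 of GRCm38 from 21616169 to 21704230, plus strand. Smarcc1 (BAF155; chromosome 9, 110117708 to 110240178, plus strand) and Smarcc2 (BAF170; chromosome 10, 128459248 to 128490482, plus strand) encode the paired scaffold proteins on which the other subunits assemble. Smarcb1 (SNF5; chromosome 10, 75896769 to 75921617, minus strand) encodes the subunit that contacts the face of the nucleosome opposite the ATPase. Smarcd1 (BAF60A; chromosome 15, 99702129 to 99713991, plus strand) and Smarcd2 (BAF60B; chromosome 11, 106263179 to 106272972, minus strand) encode alternative bridging subunits that contact transcription factors. Smarce1 (BAF57; chromosome 11, 99209047 to 99231017, minus strand) encodes a core subunit with an HMG DNA-binding domain. Arid1a (BAF250A; chromosome 4, 133679008 to 133756769, minus strand), with its AT-rich DNA-binding domain, and Dpf2 (BAF45D; chromosome 19, 5896516 to 5913010, minus strand), with PHD fingers that bind histone tails, mark the canonical form of the complex. Actl6a (BAF53A; chromosome 3, 32706298 to 32726973, plus strand) encodes the actin-related subunit that binds the ATPase.

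The annotated principal transcripts of these genes ranged from 1660 bases for Smarcb1 to 8175 bases for Arid1a, with 9 to 34 exons. For 7 of the members no run of 75 bases, the read length, in the principal transcript was found in a transcript of another gene. In Smarce1, 909 of 2845 such runs (32%) also occurred in Gm13320, Gm4811, Gm8494 or Smarce1-ps1, of which those in the count table had 32 counts at most in any library. In Smarcc1 the share was 1.68% and in Arid1a 0.037%. Smarcc1 overlaps Dhx30 and Actl6a overlaps Mrpl47 on the opposite strand. The libraries keep the strand, but the strand setting of the counting is not given in the sources used here, so reads of these antisense partners cannot be told apart with certainty.

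In control input, the subunit mRNAs spanned from 53.6 to 5.98 RPKM. Levels between genes are compared as RPKM, which is CPM per 1000 bases of the principal transcript. Actl6a at 53.6 ± 4.96 RPKM (SD, n = 4 libraries in each group) and Smarcb1 at 52.8 ± 5.40 RPKM were highest and did not differ beyond their spread. Smarcc1 at 23.2 ± 1.49 RPKM and Smarca4 at 22.0 ± 0.700 RPKM came next and also overlapped. Smarce1 had 18.8 ± 0.886, Smarcd1 16.1 ± 1.24 and Smarcd2 15.2 ± 2.03 RPKM, each overlapping its neighbour in the order. Dpf2 had 12.2 ± 0.751 RPKM, Arid1a 8.68 ± 2.22 RPKM and Smarcc2 5.98 ± 1.11 RPKM, again with overlap between neighbours. The ranges did not overlap between Smarcb1 and Smarcc1, between Smarca4 and Smarce1, and between Smarcd2 and Dpf2. How reads from the runs that Smarce1 shares with other genes (32%) were counted is not known. Its level may be too low, and its place below Smarca4 is uncertain. RAM siRNA input had the same order of all 10.

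The order depends on the gene model. Divided by the union of all annotated exons instead, Smarcb1 fell to place 6 at 11.1 RPKM, because this union (7930 bases) is longer than its principal transcript (1660 bases), whereas Actl6a stayed at place 1 and Smarcc2 at place 10. On that scale Smarca4 (20.8 to 22.4 RPKM) was above Smarcc1 (15.8 to 18.4 RPKM) without overlap.

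**Figure D1:**
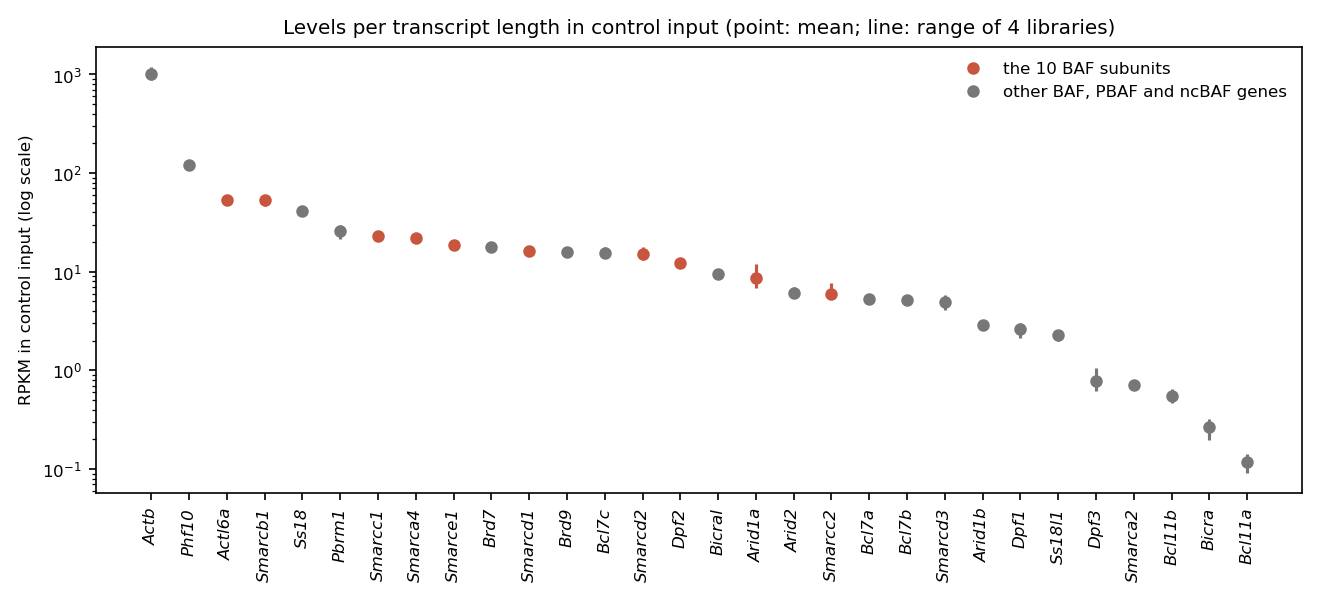
Level of each gene in control input, in RPKM on a log axis, for the 10 BAF subunits and for the other genes of the BAF, PBAF and non-canonical BAF complexes with a count, where points are means of 4 libraries and lines run from the lowest to the highest library. Actl6a and Smarcb1 lead the 10 subunits at 53.6 and 52.8 RPKM and Smarcc2 is last at 5.98 RPKM. Actl6b is not drawn because it is at 0 in control input.

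Alternative versions of the subunits were lower than the members they can replace. Smarca2, the other BAF ATPase (BRM), had 0.706 ± 0.0762 RPKM in control input against 22.0 for Smarca4. Arid1b, which replaces Arid1a, had 2.87 ± 0.101 RPKM against 8.68. Smarcd3, the other SMARCD subunit, had 4.95 ± 0.750 RPKM against 16.1 for Smarcd1 and 15.2 for Smarcd2. Dpf1 and Dpf3, which with Actl6b belong to the neuronal form of the complex, had 2.61 ± 0.389 and 0.779 ± 0.196 RPKM against 12.2 for Dpf2. Actl6b had 0 counts in all 4 control input libraries, and Bcl11a, an associated zinc-finger protein, had 10 to 17 counts per library, both under the filter. In each of these pairs the ranges of the 4 control input libraries did not overlap.

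RAM siRNA and control cells were then compared in input to ask whether the knockdown changed the level of subunit mRNA relative to other transcripts. The differences were small. Of the 10 members, 7 had a log2 fold change below 0 and 3 above it, with a median of -0.08 (all genes 0.00) and a range from -0.17 for Smarcb1 to 0.13 for Smarcc2. No member passed the threshold in the quasi-likelihood test (0 of 10, where 12.9% of all tested genes passed). Smarce1 alone had an unadjusted p under 0.05 in edgeR, which 28.0% of all genes had, and DESeq2 and limma-voom also called 0. No member had groups that did not overlap, against 8.62% of all genes lower and 9.39% higher without overlap.

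Same-numbered control and RAM siRNA cultures deviated together, and with the replicate block 3 members were lower and 0 higher, where 19.0% of all genes were lower and 20.3% higher. The members that passed were Smarcb1, Smarcd1 and Smarce1. In 4 of 4 same-numbered pairs, 3 members (Smarcb1, Smarcd1 and Smarcd2) were lower, as were 24.6% of all genes, and the share among the members was not far from that background.

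Smarcb1 had 87.5, 87.6, 76.9 and 98.9 CPM in control input replicates 1 to 4, and 72.8, 76.1, 72.7 and 91.8 CPM after RAM siRNA. Each RAM siRNA library was below the control library of its number, although the groups overlapped. The log2 fold change was -0.17 ± 0.09 (SE, adjusted p = 0.277) without the block and -0.17 ± 0.05 (adjusted p = 0.00644) with it. With the block this estimate is a fall of 10.9% relative to other transcripts, and the fit without it did not pass.

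Smarcd1 had 54.8, 52.3, 48.4 and 58.1 CPM in control input and 46.4, 47.8, 45.4 and 53.0 CPM after RAM siRNA, lower in 4 of 4 pairs. Its log2 fold change was -0.15 ± 0.08 (adjusted p = 0.219), and -0.15 ± 0.05 (adjusted p = 0.0163) with the block. Smarcd2, its alternative version, was also below its control in 4 of 4 pairs, but its log2 fold change of -0.08 ± 0.05 with the block did not pass (adjusted p = 0.236; 95% interval -0.18 to 0.03).

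Smarce1 had 56.6, 55.1, 51.3 and 56.8 CPM in control input and 46.3, 45.6, 51.5 and 53.4 CPM after RAM siRNA. It was lower in replicates 1, 2 and 4, and about level in replicate 3. Its log2 fold change was -0.16 ± 0.07 (adjusted p = 0.169), and -0.16 ± 0.05 (adjusted p = 0.0198) with the block.

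The 3 calls with the block were lost without replicate 1, where 0 members and 28.0% of all genes passed. The log2 fold changes were then -0.13 for Smarcb1 (adjusted p = 0.0638, edgeR), -0.12 for Smarcd1 (adjusted p = 0.110) and -0.12 for Smarce1 (adjusted p = 0.159), still below 0 and from fewer libraries. Without replicate 2, 3 members were lower and 1 higher, where 15.1% of all genes were lower and 16.4% higher. Smarce1 also missed (adjusted p = 0.125) while Arid1a (log2 fold change -0.25, adjusted p = 9.52e-04) and Smarcc2 (0.24, adjusted p = 0.0190) passed. DESeq2 with the block called only Smarcb1 (adjusted p = 0.0297).

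The ATPase and the scaffolds did not pass in input with or without the block. Smarca4 had 134 to 145 CPM in control input and 131 to 148 CPM after RAM siRNA, and the 95% interval of its log2 fold change with the block ran from -0.14 to 0.04. Smarcc1 lay between -0.09 and 0.10 and Actl6a between -0.06 and 0.12 on the same scale. Among the 7 members that did not pass, the interval of Smarcc2 reached farthest above 0 (-0.01 to 0.29) and that of Arid1a farthest below it (-0.27 to -0.02, adjusted p = 0.0688). Dpf2 lay between -0.19 and 0.03. The summed level of the 8 pluripotency markers also moved with the siRNA, from 4624 to 4949 CPM in control input to 3858 to 4454 CPM after RAM siRNA, and that of the 5 endoderm markers from 4.44 to 5.40 CPM to 6.22 to 7.83 CPM. In polysomes the endoderm sum went from 6.57 to 8.12 CPM in control to 8.86 to 10.9 CPM after RAM siRNA, while the pluripotency, neural and fibroblast sums overlapped, as did the neural and fibroblast sums in input. Single markers differed within these sums. In input, Nanog, Esrrb and Dppa5a alone of the pluripotency markers were lower without overlap. Gata6 alone of the endoderm markers was higher in input (2.43 to 3.26 CPM in control, 3.93 to 4.93 CPM after RAM siRNA). In polysomes, Nanog (406 to 473 against 307 to 368 CPM) and Sox2 (267 to 282 against 227 to 252 CPM) alone of the pluripotency markers were lower without overlap. Sox17 alone of the endoderm markers was higher there (1.08 to 1.43 against 1.55 to 2.17 CPM). Although the neural sums overlapped, Neurod1 was lower without overlap in both fractions, and Sox1 and Pax6 in polysomes (Pax6 12.2 to 15.2 against 5.55 to 7.97 CPM). The part of these markers in the subunit values was not tested.

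**Figure D2:**
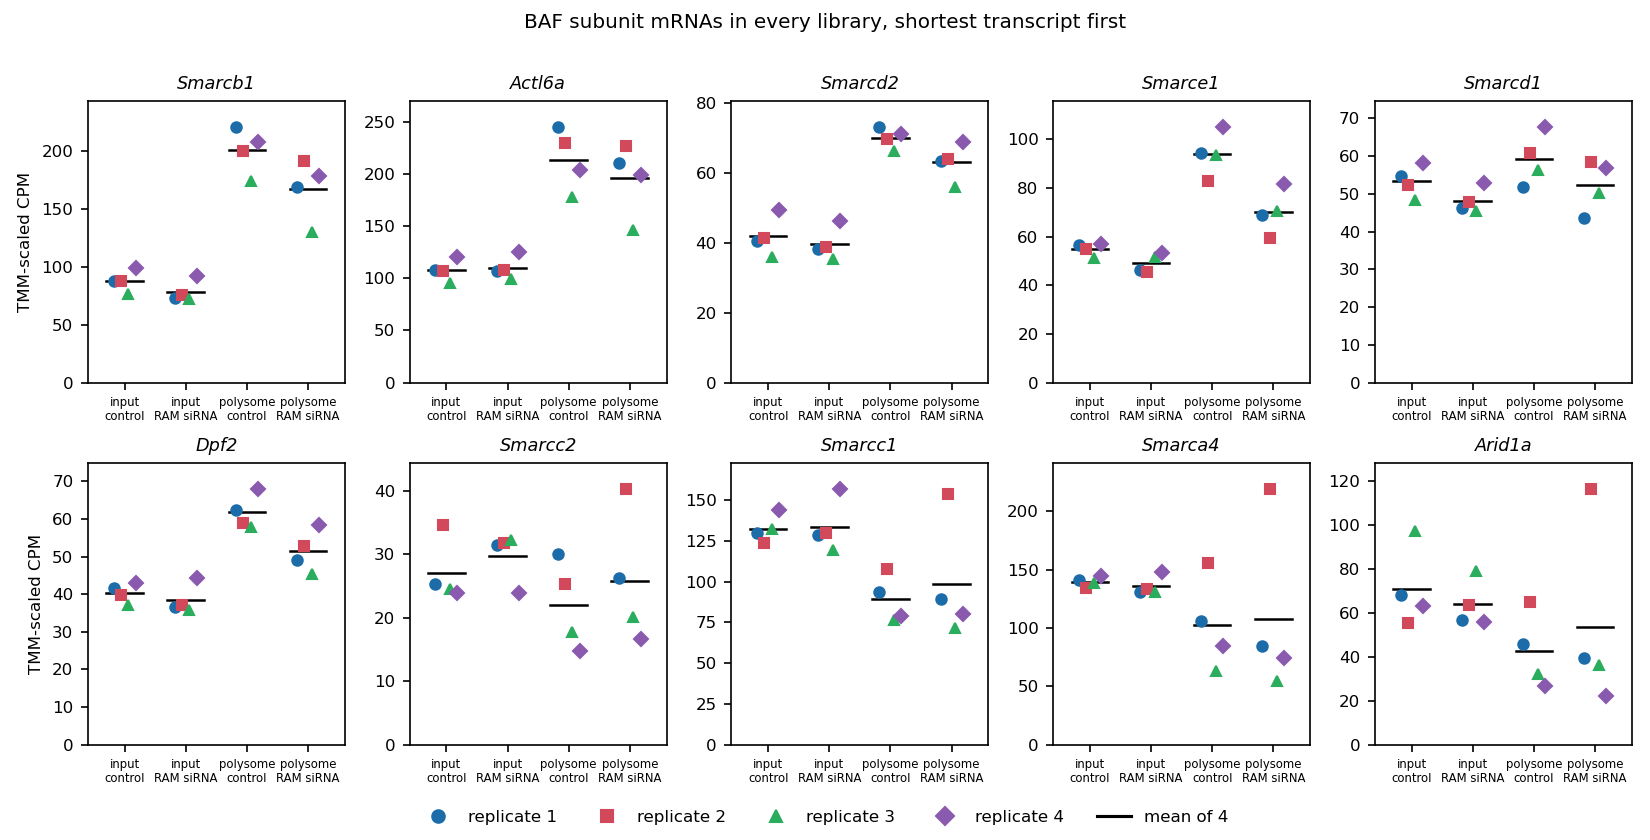
TMM-scaled CPM (vertical axis, starting at 0) of each subunit mRNA in all 16 libraries, with a marker for each replicate number and a line at the mean of 4. The input groups overlap for every member, and the polysome RAM siRNA library of replicate 2 is the highest polysome library for Smarcc2, Smarcc1, Smarca4 and Arid1a.

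In polysomes, RAM siRNA and control cells were compared to ask whether the level of subunit mRNA changed relative to other polysomal transcripts. Each library was scaled to its own size, so a change common to all polysomal transcripts is not seen. The paper reports a lower ratio of polysomes to free ribosomes and subunits after RAM siRNA, and these values do not measure it. Smarce1 was the member with the clearest difference. No member passed without the block (0 of 10, where 0.0234% of all genes passed, or 3 genes), Smarce1 alone had an unadjusted p under 0.05 in edgeR, which 9.00% of all genes had, and DESeq2 and limma-voom called 0. With the block, 1 member was lower and 0 higher, where 4.97% of all genes were lower and 9.68% higher.

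Smarce1 had 94.6, 83.0, 93.5 and 105 CPM in polysome control replicates 1 to 4 and 68.8, 59.5, 70.5 and 81.7 CPM after RAM siRNA. The highest RAM siRNA library was below the lowest control library, a pattern seen in 4.38% of all genes, and Smarce1 was the single member that showed it (the reverse, seen in 2.18% of all genes, occurred in 0 members). The log2 fold change was -0.37 ± 0.16 (adjusted p = 0.539), and -0.38 ± 0.11 (adjusted p = 0.0248) with the block. With the block this estimate is a fall of 23.1% relative to other polysomal transcripts, and the fit without it did not pass. Smarce1 kept this call without replicate 2 (-0.35, adjusted p = 0.00105), and lost it without replicate 1 (adjusted p = 0.161), replicate 3 (0.114) or replicate 4 (0.0810), with log2 fold changes between -0.43 and -0.37.

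The shorter subunit mRNAs were below their control in every pair. Smarcb1, Smarcd1, Smarcd2, Smarce1, Dpf2 and Actl6a, the 6 members with principal transcripts of 3314 bases or less, were lower in 4 of 4 same-numbered pairs, which 20.2% of all genes were. Their log2 fold changes with the block ran from -0.09 for Actl6a to -0.38 for Smarce1, and apart from Smarce1 none passed. Smarcb1 had 174 to 221 CPM in polysome control and 130 to 191 CPM after RAM siRNA (log2 fold change with the block -0.23 ± 0.11, adjusted p = 0.200). Dpf2 had 57.8 to 68.0 CPM and 45.4 to 58.5 CPM (-0.22 ± 0.11, adjusted p = 0.185). Without replicate 2 and with the block, Smarcb1 (-0.28, adjusted p = 0.00635) and Dpf2 (-0.25, adjusted p = 0.0152) passed beside Smarce1, so that 3 members were lower and 0 higher, where 14.3% of all genes were lower and 21.3% higher (35.6% in all). Smarcd1 (-0.17, adjusted p = 0.0957), Smarcd2 (-0.11, adjusted p = 0.283) and Actl6a (-0.12, adjusted p = 0.253) did not pass in that fit, and with no block 0 members passed without replicate 2 in edgeR.

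The 4 members with longer transcripts, Smarcc2, Smarcc1, Smarca4 and Arid1a, varied more between polysome libraries. Their log2 fold changes were lower without replicate 2, whose RAM siRNA library was the highest polysome library of each. For Smarcc1 the SD was 16.2% of the mean in polysome control, near the 13.9% of Actl6a, and 38.0% after RAM siRNA. In polysome control, Smarcc2 was highest in replicate 1 (30.1 CPM). Smarca4 had 106, 156, 62.9 and 84.9 CPM in polysome control replicates 1 to 4 and 84.3, 219, 54.2 and 74.4 CPM after RAM siRNA. In both groups replicate 2 was highest, and the RAM siRNA library of replicate 2 was 4.04 times the lowest of its group. The log2 fold change of Smarca4 was 0.12 ± 0.43 without the block, with a 95% interval from -0.84 to 1.07, and -0.01 ± 0.13 with it. Without replicate 2 in either group it was -0.19 (adjusted p = 0.828), or -0.19 with the block (adjusted p = 0.0561).

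Arid1a had 45.9, 64.9, 32.3 and 26.6 CPM in polysome control and 39.5, 116, 36.0 and 22.0 CPM after RAM siRNA, a spread of 5.28-fold within the RAM siRNA group. Its log2 fold change was 0.37 ± 0.48 (adjusted p = 0.958), and -0.04 without replicate 2 (adjusted p = 0.983). Smarcc1 had 76.5 to 108 CPM in polysome control and 71.3 to 154 CPM after RAM siRNA, and Smarcc2 had 14.8 to 30.1 and 16.6 to 40.3 CPM. Neither passed, with log2 fold changes of 0.14 ± 0.12 (95% interval -0.11 to 0.40) and 0.26 ± 0.13 (-0.02 to 0.54) with the block. Without replicate 2, the values with the block were 0.0093 for Smarcc1 (adjusted p = 0.935, edgeR) and 0.096 for Smarcc2 (adjusted p = 0.479). Without the RAM siRNA library of replicate 2 alone and with no block, Smarcc1 was at -0.092 and Smarcc2 was nearest 0 of its alternatives, at 0.00053.

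**Figure D3:**
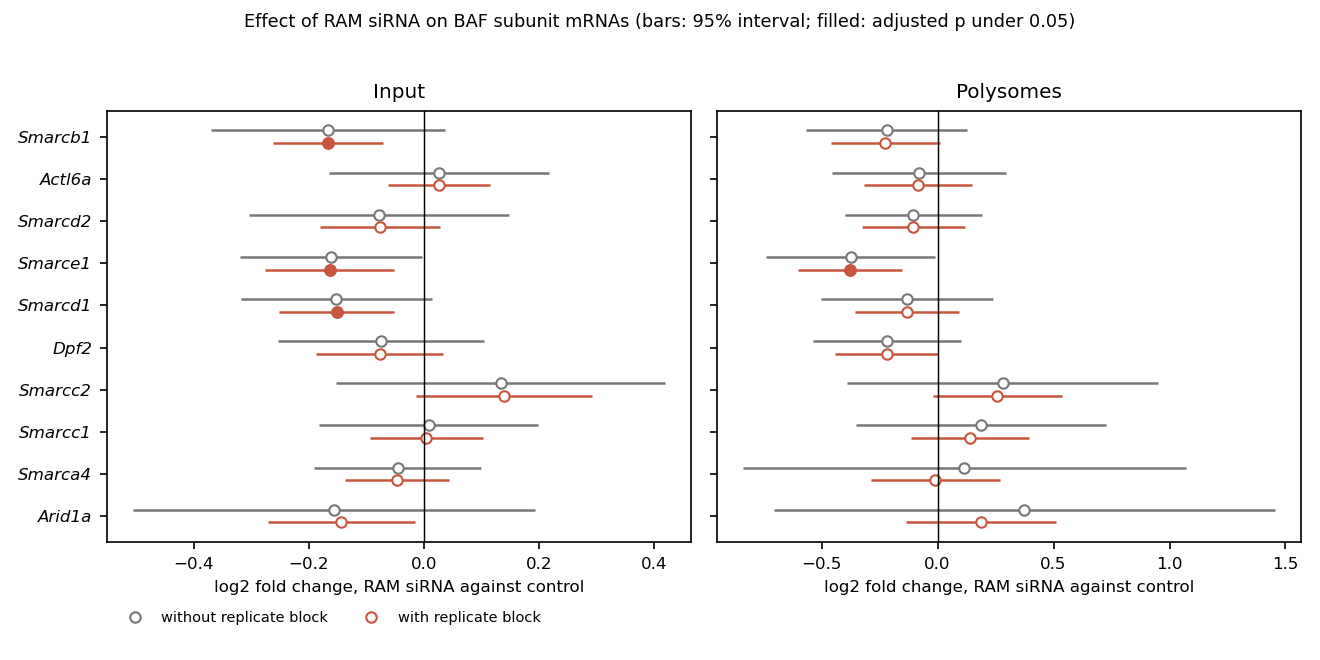
Log2 fold change of each subunit mRNA after RAM siRNA against control (horizontal axes, on a different scale for each panel) in input and in polysomes, without and with the replicate block, with bars for the 95% interval and filled points for an adjusted p under 0.05. Smarcb1, Smarcd1 and Smarce1 pass with the block in input and Smarce1 in polysomes, and without the block the intervals in polysomes are widest for Smarca4 and Arid1a.

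Polysome loading, the level in polysomes relative to input, was first examined in control cells. Of the 6 subunits with principal transcripts of 3314 bases or less, 5 were relatively richer in polysomes, and 2 of the 4 with longer transcripts were poorer. The values are relative to the other transcripts of each library and do not give the number of ribosomes per mRNA. Of the 10 members, 5 were higher in polysomes and 2 lower, where 33.1% of all genes were higher and 34.3% lower. Replicate ranges did not overlap for the 5 higher members and for 1 lower member, Smarcc1 (all genes 30.7% higher and 30.4% lower).

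The higher members were Smarcb1, Actl6a, Smarce1, Smarcd2 and Dpf2. Smarcb1 rose from 87.7 ± 8.96 CPM in control input to 201 ± 19.9 CPM in control polysomes (log2 fold change 1.16 ± 0.12 SE, adjusted p = 9.87e-06, edgeR). Actl6a rose from 108 ± 9.98 to 214 ± 29.7 CPM (0.95 ± 0.13, adjusted p = 5.80e-05). Smarce1 had a log2 fold change of 0.74 ± 0.11, Smarcd2 of 0.71 ± 0.12 and Dpf2 of 0.58 ± 0.11, with adjusted p from 1.26e-04 to 5.53e-04. Each of these was higher in polysomes in 4 of 4 control cultures.

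The lower members were Smarcc1 and Arid1a. Smarcc1 had 130, 124, 132 and 144 CPM in control input and 93.5, 108, 76.5 and 78.8 CPM in control polysomes, lower in 4 of 4 cultures (log2 fold change -0.61 ± 0.13, adjusted p = 0.00147). Arid1a had 68.2, 55.5, 97.0 and 63.1 CPM in control input against the polysome values above, so replicate 2 went the other way (-0.78 ± 0.26, adjusted p = 0.0195). Its call was lost without input control replicate 3 (adjusted p = 0.0706) or polysome control replicate 3 (0.0651) and with all 16 libraries in a single fit (0.114). Smarca4 missed the threshold at -0.48 ± 0.22 (adjusted p = 0.0723), but passed with the block (-0.56 ± 0.20, adjusted p = 0.0345) and without replicate 2 (-0.76, adjusted p = 0.00350). Smarcc2 (-0.34 ± 0.21, adjusted p = 0.164, and 0.0516 with the block) and Smarcd1 (0.12 ± 0.12, adjusted p = 0.414, 95% interval -0.15 to 0.39) did not pass.

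Ranked by principal transcript length, the members fell almost in the order of their polysome loading. Across the 10 members the log2 fold change and the log2 transcript length had a Pearson correlation of -0.965 and a Spearman correlation of -0.964, against -0.206 and -0.349 across 12776 tested genes with a length. These are descriptions across genes of the same 8 libraries, which are not independent replicates, and length was examined after the values were seen. The ranking by length also depends on the gene model. By the union of all annotated exons, Smarcb1 (7930 bases), Smarce1 (6650) and Dpf2 (6501) were longer than Smarca4 (6475), while Arid1a (11476) stayed longest. No correlation was computed on that scale. Over all genes the median log2 fold change went from 0.57 for transcripts of 1000 to 2000 bases, through 0.04 at 3000 to 4000 bases, to -1.02 at 8000 bases or more, while transcripts under 1000 bases had -0.13. Against genes of their own length class, 7 members were within the interquartile range and 3 above it: Smarcb1 by 0.59 over its class median, Actl6a by 0.65 and Dpf2 by 0.54. Smarca4 at -0.48 and Arid1a at -0.78 were above their class medians of -0.68 and -1.02, while Smarcc1 at -0.61 was below its class median of -0.49.

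**Figure D4:**
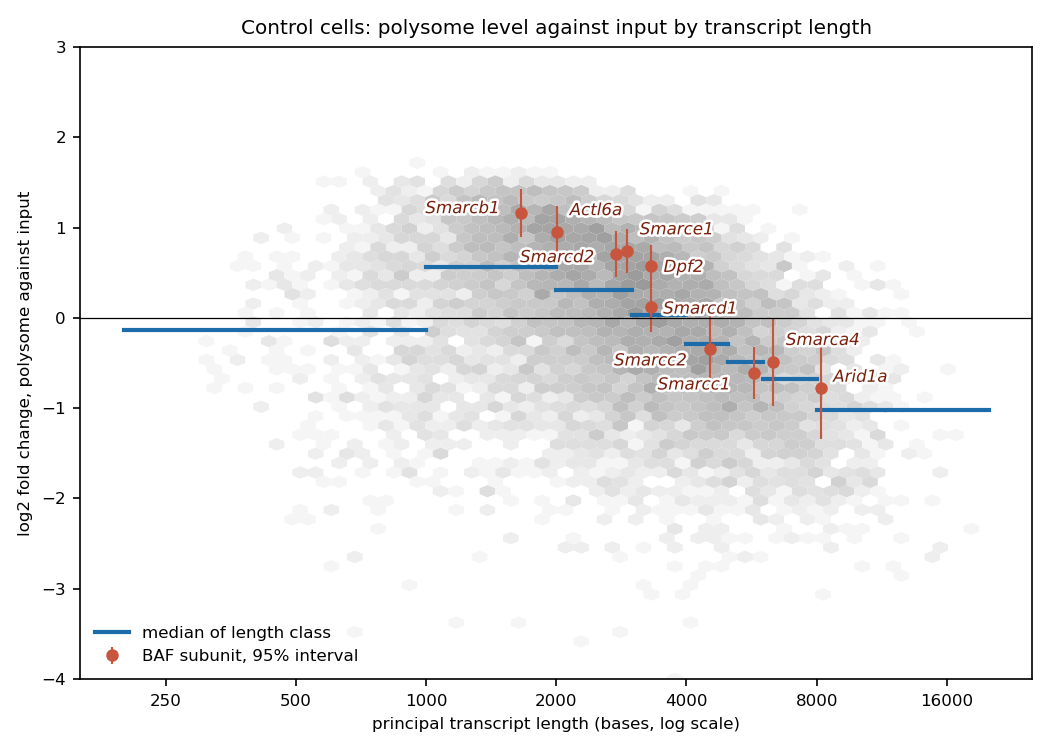
Log2 fold change of control polysomes against control input (vertical axis) by principal transcript length (horizontal log axis) for tested genes (grey hexagons, darker where there are more genes), with lines at the median of each length class and the 10 subunits with 95% intervals. The subunits run from Smarcb1 at 1.16 down to Arid1a at -0.78, and 81 of 12776 genes lie outside the axes.

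In single cultures the order varied, but 5 members, Smarcb1, Actl6a, Smarcd2, Smarce1 and Dpf2, were higher in polysomes than in input in all 8. Smarcb1 had log2 ratios of polysome to input CPM from 0.84 to 1.34. Actl6a ran from 0.56 to 1.19, Smarcd2 from 0.53 to 0.88, Smarce1 from 0.38 to 0.89 and Dpf2 from 0.35 to 0.66. Arid1a had ratios of -0.57, 0.23, -1.59 and -1.25 in control replicates 1 to 4 and of -0.52, 0.87, -1.13 and -1.35 in RAM siRNA replicates 1 to 4. Smarca4 had -0.42, 0.21, -1.14 and -0.77 in control and -0.63, 0.71, -1.27 and -0.99 after RAM siRNA. Both long mRNAs were thus above input in replicate 2 of either siRNA and below it in the other cultures. The longest genes in general moved the same way: for transcripts of 8000 bases or more the median log2 ratio was -0.58 in control replicate 2 and -0.27 in RAM siRNA replicate 2, against -1.46 to -0.93 in the other 6 cultures. The part of this library difference in the polysome values of Smarca4 and Arid1a was not tested.

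**Figure D5:**
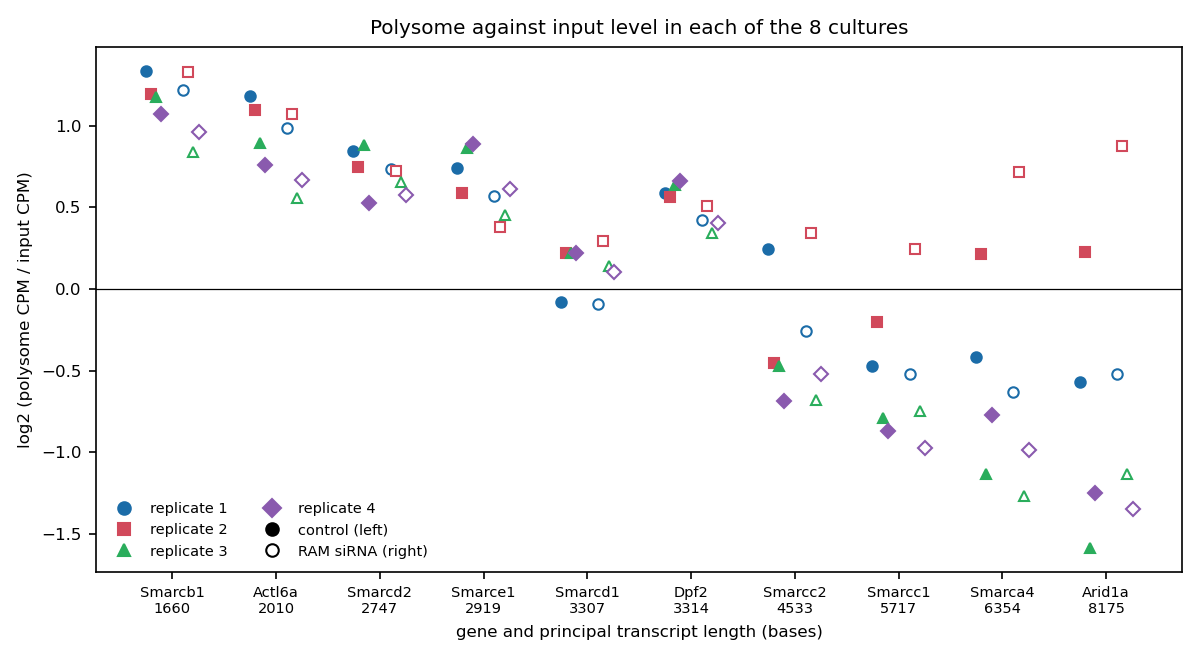
Log2 ratio of polysome CPM to input CPM (vertical axis) of each subunit in the 4 control cultures (filled) and the 4 RAM siRNA cultures (open), with genes from the shortest to the longest transcript. The values of Smarcb1 lie between 0.84 and 1.34, whereas those of Arid1a spread from -1.59 to 0.87 with both cultures of replicate 2 above 0.

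The change of polysome loading by RAM siRNA, the difference between the effect in polysomes and that in input, was tested in all 16 libraries. No member passed (0 of 10, and 0 of all genes, 0%, in edgeR), and 0 had an unadjusted p under 0.05, against 0.781% of all genes. DESeq2 and limma-voom also called 0 members. The 2 effects and their difference share libraries, so they are given side by side and not as independent evidence. Smarce1 had log2 fold changes of -0.16 in input and -0.37 in polysomes, and its loading changed by -0.26 ± 0.17 (adjusted p = 1.00; 95% interval -0.62 to 0.09). With a replicate block within each fraction it was -0.27 ± 0.11, the single unadjusted p under 0.05 among the members (adjusted p = 0.955 in edgeR), where 4.97% of all genes had one and 0.0156% passed after adjustment. Smarcb1 had -0.17 and -0.22 with a loading change of -0.10 ± 0.20, and Dpf2 had -0.07 and -0.22 with -0.19 ± 0.16. Arid1a had -0.16 and 0.37 with 0.49 ± 0.56, which became -0.23 without polysome RAM siRNA replicate 2, and Smarca4 had -0.05 and 0.12 with 0.12 ± 0.47, which became -0.49. The 95% intervals without the block were narrowest for Dpf2 (-0.53 to 0.15) and widest for Arid1a (-0.69 to 1.66).

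The mRNAs most like Smarca4 across the 16 libraries were those of Mcm3ap, Cand1 and Trappc11, with root-mean-square differences of 0.08, 0.08 and 0.09 in log2 CPM centred on each gene's mean, out of 12803 genes. Among the members Smarcc1 was nearest, at place 206 (0.23), followed by Arid1a at place 667 (0.33) and Smarcc2 at place 972 (0.36). Smarcb1 was farthest, at place 10089 (0.92). The measure spans both fractions, so it takes in the difference between polysomes and input and that of replicate 2. The nearest members were the others with longer principal transcripts, and that of Smarcb1 is the shortest. Shared regulation with Smarca4 was not tested.

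The other genes of the BAF, PBAF and non-canonical BAF complexes were compared from a fixed list of 21, of which 19 were tested. In input 0 passed without the block in edgeR (12.9% of all genes), and 3 had an unadjusted p under 0.05 (28.0% of all genes). With the block 3 were lower and 2 higher, where 19.0% of all genes were lower and 20.3% higher. The lower genes were Pbrm1 (log2 fold change -0.39 ± 0.05, adjusted p = 4.48e-06), the polybromo subunit of PBAF, Phf10 (-0.20 ± 0.04, adjusted p = 0.00103), its PHD-finger subunit, and Smarcd3 (-0.31 ± 0.10, adjusted p = 0.0153). The higher genes were Ss18l1 (0.27 ± 0.09, adjusted p = 0.0202) and Bcl7a (0.19 ± 0.06, adjusted p = 0.0198), which encode accessory subunits. The log2 fold change of Pbrm1 was farther from 0 than that of any of the 10 members, a difference that was not tested. In polysomes 0 passed without the block (0 at an unadjusted p under 0.05), and with it Smarcd3 was lower (-0.47 ± 0.12, adjusted p = 0.0154) and 0 were higher. Over all genes 4.97% were lower and 9.68% higher with the block. With the block and without replicate 2, Smarcd3 (-0.41), Pbrm1 (-0.43), Phf10 (-0.25) and Ss18 (-0.31) were lower and Bcl7a (0.49) and Bcl7c (0.28) higher. That is 4 lower and 2 higher of 19, where 14.3% of all genes were lower and 21.3% higher. Without replicate 2 and without the block 0 passed in edgeR, with 1 at an unadjusted p under 0.05. Smarca2 (-0.20, adjusted p = 0.215 in input with the block), Arid1b (-0.01, 0.944), Dpf1 (0.28, 0.0510) and Dpf3 (0.38, 0.0645), the alternative versions of members, did not pass.

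In control cells, 4 of these 19 genes were higher in polysomes than in input and 9 lower, where 33.1% of all genes were higher and 34.3% lower. The median log2 fold change of the 19 was -0.43 against 0.35 for the 10 members. Smarcd3, with a transcript of 1735 bases, was higher (0.96, adjusted p = 7.19e-04), as were its relative Smarcd2 and the similarly short Smarcb1. Its other relative, Smarcd1, did not pass (0.12, adjusted p = 0.414, edgeR). Dpf1 (-0.79, adjusted p = 0.00748) and Dpf3 (-0.77, adjusted p = 0.0340) were lower while Dpf2 was higher (0.58), although their transcripts of 2309 and 3135 bases are shorter than the 3314 bases of Dpf2. Arid1b did not pass (-0.13, adjusted p = 0.585) with a transcript of 11325 bases.

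The ATPases of other remodellers (ISWI, CHD, INO80 and further SNF2 families) served as a comparison for Smarca4. Of 17, 14 were lower in control polysomes than in input and 0 higher, where 34.3% of all genes were lower and 33.1% higher. The median log2 fold change of the 17 was -1.36, below the -0.48 of Smarca4. Their transcripts were also longer, with a median of 8509 bases (4798 to 12008) against 6354 for Smarca4. In input after RAM siRNA with the block, Smarca5, an ATPase of ISWI, was lower (-0.19 ± 0.04, adjusted p = 0.00124), as was Chd9 (-0.16 ± 0.05, adjusted p = 0.0102). Chd4, an ATPase of NuRD, was higher (0.15 ± 0.05, adjusted p = 0.0127), with Chd5 (0.37 ± 0.09, adjusted p = 0.00376) and Chd6 (0.16 ± 0.05, adjusted p = 0.0196). That is 2 lower and 3 higher of 17, where 19.0% of all genes were lower and 20.3% higher. Without the block 0 passed in edgeR, with 2 at an unadjusted p under 0.05, and in polysomes 0 passed with or without it, with 3 and 0 at an unadjusted p under 0.05. With the block and without replicate 2, 4 of 17 were lower in polysomes (Smarca5, Chd1, Smarcad1 and Hells, with log2 fold changes from -0.36 to -0.24) and 0 higher. Over all genes 14.3% were lower and 21.3% higher in that fit. Without replicate 2 and without the block 0 of the 17 passed in edgeR, with 0 at an unadjusted p under 0.05.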

How the data were processed

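RNA-seq libraries of cytoplasmic input and of pooled polysome fractions were made from rRNA-depleted, strand-marked RNA. Per the methods and the submitters' processing notes, reads of 75 bases were mapped to GRCm38 (mm10) with STAR 2.5.1b and counted per Ensembl gene with htseq-count. The settings of the counting and the annotation release are not given in the sources used here. The authors deposited raw counts per gene for 16 libraries, not filtered and not normalized, with 46983 genes and 16647523 to 20147833 counts per library, and 0 columns belong to other samples. Within a group, any pair of libraries differed by more than counting noise (chi-square per gene of at least 5.09).

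Symbols came from a table of Ensembl IDs (46488 of 46983 matched), and loci, lengths and overlaps from GENCODE M21 on GRCm38. CPM are counts scaled by TMM over all 16 libraries and are given as mean ± SD. Tests used the quasi-likelihood test of edgeR 4.0.16 (R 4.3.3), two-sided, on the 12805 genes with at least 1 CPM in at least 10 libraries, with TMM per comparison, Benjamini-Hochberg adjustment over all of them and a threshold of 0.05. Log2 fold changes are given ± SE, and intervals are 95% intervals of the fit. Comparisons within a fraction or within control cells used 8 libraries, and the change of loading used 16. The methods name no factor for the replicate, so none was in the first fit. Same-numbered libraries paired: the correlation of their deviations from the group means over 9140 genes was 0.40 to 0.80 between siRNAs in input, 0.62 to 0.94 in polysomes, 0.24 to 0.57 between fractions of control cells and 0.30 to 0.71 after RAM siRNA. The methods describe 4 independent occasions, and input was a share of each extract. A replicate block was therefore also fitted.

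The steps were run on simulated data, with planted changes larger than any RAM siRNA effect on a member and no shift of long transcripts. That run does not measure the power to find changes as small as those of the members. Alternatives were DESeq2 1.42.0, limma-voom (limma 3.58.1), other scalings, no filter, the replicate block, all libraries in a single fit and each library left out. Fits without a replicate number in every group, and DESeq2 and limma-voom with the block, were added after seeing the data. The members and gene lists were chosen with earlier results of these data known. All 10 members are named in each comparison. Of the other BAF genes and remodeller ATPases, those named passed the threshold in input or polysomes, were under 1 CPM or are versions of a member. Those named for passing in polysomes only without replicate 2 were chosen after their values were seen. Likeness to Smarca4 was the smallest root-mean-square difference of centred log2 CPM, for the 3 nearest genes.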

Additional observations from a re-analysis of the deposited data

Results flagged for a closer look

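In 3 of the 40 groups of 4 input or polysome values of the members, a library lay far from the other 3 by Dixon's test, where chance alone gives about 2 (1 in 20). Smarcc2, a scaffold subunit, was highest in input control replicate 2 at 34.6 CPM, with the others between 23.9 and 25.4 CPM. In input RAM siRNA it was lowest in replicate 4 at 23.9 CPM, with the others between 31.4 and 32.2 CPM. Its level after RAM siRNA was thus above that of the control in replicates 1 and 3, below it in replicate 2 and level in replicate 4. Dpf2 was highest in input RAM siRNA replicate 4 at 44.2 CPM, with the others between 35.7 and 37.1 CPM. Replicate 4 was also the highest control library of Dpf2, at 42.9 CPM.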

How the results depend on the processing

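Of the 10 members, 0 passed in input, 0 in polysomes and 0 for the change of loading, and 7 differed between polysomes and input of control cells. The last count was 6 to 8 in each of its 16 alternatives, and the change of loading stayed at 0 in each of its 25. In input, the replicate block gave 3 members, limma-voom with the block 3 and DESeq2 with the block 1. With the block and without replicate 2, 3 or 4 in every group the input count was 4, 3 and 3, where 31.4%, 33.0% and 38.8% of all genes passed, so the members were near that background. In polysomes, the block gave 1 member, as did DESeq2 or limma-voom with the block, and 3 with the block and without replicate 2, where 35.6% of all genes passed. Leaving out 1 library at a time gave 0 to 1 in input, where the single call came without RAM siRNA replicate 4, and 0 to 0 in polysomes. Over all genes, 1651 passed in input against 5028 with the block and 186 with all 16 libraries in a single fit. In polysomes 3 passed against 1875 with the block, 4558 with the block and without replicate 2, 453 in the single fit, 300 in DESeq2 and 39 with no filter. Other scalings moved the median of all genes by less than 0.1.

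The direction of 8 members turned in at least 1 alternative, and none of these turned values passed the threshold. In input, the log2 fold change of Smarcc1 was 0.01, against -0.012 with library size alone, -0.017 with no filter, -0.017 with the block and without replicate 2, and -0.034 with the block and without replicate 4. In polysomes, Smarca4 was 0.12, against -0.012 in limma-voom, -0.0095 with the block, -0.025 in DESeq2 with the block and -0.015 in limma-voom with the block. Without replicate 2 it was -0.19, and -0.19 with the block, where Arid1a was -0.036 and -0.046. For the change of loading, Smarcd1 was -0.03, against 0.012 in DESeq2, 0.012 with RLE size factors and 0.044 with no filter. Smarca4 was 0.12, against -0.012 in limma-voom and -0.010 with the replicate block within each fraction. Without replicate 2, the change of loading was -0.20 for Smarca4, -0.042 for Smarcc1 and -0.24 for Smarcc2, and with the block within each fraction also -0.19, -0.035 and -0.20. Leaving out 1 library at a time, the log2 fold change in input ran from -0.074 to 0.055 for Smarcc1, from -0.16 to 0.0080 for Smarcd2, from -0.28 to 0.033 for Arid1a and from -0.040 to 0.081 for Actl6a. In polysomes it ran from -0.47 to 0.39 for Smarca4, from -0.092 to 0.29 for Smarcc1, from -0.32 to 0.65 for Arid1a and from -0.15 to 0.013 for Actl6a, with the lowest value of each without RAM siRNA replicate 2. The change of loading ran from -0.49 to 0.40 for Smarca4, from -0.17 to 0.042 for Smarcb1, from -0.16 to 0.27 for Smarcc1, from -0.20 to 0.29 for Smarcc2, from -0.088 to 0.076 for Smarcd1, from -0.12 to 0.064 for Smarcd2 and from -0.23 to 0.77 for Arid1a. The causes were not tested. With 4 libraries a group, the intervals of Smarca4 and Arid1a in polysomes leave changes of either direction undecided.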
